A study of Mus musculus with 12 samples.

Results

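The brush border of the small intestine carries the enzymes and carriers that turn dietary sugars into absorbed hexoses, and 8 genes of that pathway were examined here: the disaccharidases Lct, Sis, Treh and Mgam, the sugar carriers Slc5a1, Slc2a2 and Slc2a5, and the fructose kinase Khk. They were chosen by symbol, with earlier results of these data known. All 8 are among the 45808 genes of the deposited table, and all 8 passed the filter on low values that left 15025 genes for testing. The samples are 12 libraries of distal ileal tissue from BALB/c mice, an inbred laboratory strain, 6 given phosphate-buffered saline (PBS) as controls and 6 treated with Porphyromonas gingivalis, an oral bacterium associated with periodontitis. Genotype, age, sex, dose, route and duration are not stated in the labels, nor is it said whether each library came from its own mouse, so p-values measure only the spread between these samples, which may be technical. Replicate numbers are those of the sample titles.

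Starch, sucrose and milk sugar are split at the surface of enterocytes before they can be absorbed. Sucrase-isomaltase (Sis) and maltase-glucoamylase (Mgam) release glucose and fructose from sucrose and starch fragments, lactase (Lct) splits lactose, and trehalase (Treh) splits trehalose, a sugar of fungi and insects. The sodium-coupled carrier SGLT1 (Slc5a1) takes up glucose and galactose, the facilitative carrier GLUT5 (Slc2a5) takes up fructose, and GLUT2 (Slc2a2) passes hexoses on to the blood side. Ketohexokinase (Khk) then phosphorylates fructose inside the cell. These genes are not used evenly along the gut, and lactase and hexose uptake are textbook functions of its upper part.

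All 8 code for proteins in the GENCODE annotation of the mouse build GRCm38, and each value covers a gene as a whole, exons and isoforms together. Lct lies at chr1:128284756-128328318 on the minus strand and Sis at chr3:72888557-72967863 on the minus strand. Mgam lies at chr6:40628831-40769123, Treh at chr9:44673233-44686305, Slc5a1 at chr5:33104219-33162870, Slc2a2 at chr3:28697903-28731359, Slc2a5 at chr4:150119283-150144169 and Khk at chr5:30921431-30931248, all on the plus strand. Slc2a2 and Sis share a chromosome but are not neighbours. The locus Mgam2-ps is named after Mgam, and how reads shared by such similar loci were assigned is not stated, so values of Mgam carry that uncertainty, as do those of the paralogs Slc5a4a and Slc5a4b.

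The 250 bases before the RefSeq transcription start (GRCm38.p6) are shown for the members with the largest SD of log2 values over the 12 libraries, Lct and Slc2a2, and for those with the smallest, Sis and Mgam, each written 5′ to 3′ in the direction of its gene. Capitals mark matches, on either strand, to AGATAA or TGATAA, letters bound by GATA factors, and to TATAAA, the TATA box.
Lct, chr1:128328319-128328568, minus strand: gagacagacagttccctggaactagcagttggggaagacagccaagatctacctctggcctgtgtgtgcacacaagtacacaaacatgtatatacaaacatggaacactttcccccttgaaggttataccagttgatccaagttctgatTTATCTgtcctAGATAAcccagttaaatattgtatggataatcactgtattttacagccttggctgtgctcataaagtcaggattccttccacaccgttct
Slc2a2, chr3:28697653-28697902, plus strand: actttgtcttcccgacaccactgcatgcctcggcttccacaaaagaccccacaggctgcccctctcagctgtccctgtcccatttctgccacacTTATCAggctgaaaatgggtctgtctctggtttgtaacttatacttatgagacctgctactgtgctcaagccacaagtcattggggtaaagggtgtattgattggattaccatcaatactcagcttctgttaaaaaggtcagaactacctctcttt
Sis, chr3:72967864-72968113, minus strand: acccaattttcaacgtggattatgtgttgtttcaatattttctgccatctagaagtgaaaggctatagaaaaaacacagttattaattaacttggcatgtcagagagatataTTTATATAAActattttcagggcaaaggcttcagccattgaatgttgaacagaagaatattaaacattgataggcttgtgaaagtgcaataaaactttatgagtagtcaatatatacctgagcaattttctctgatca
Mgam, chr6:40628581-40628830, plus strand: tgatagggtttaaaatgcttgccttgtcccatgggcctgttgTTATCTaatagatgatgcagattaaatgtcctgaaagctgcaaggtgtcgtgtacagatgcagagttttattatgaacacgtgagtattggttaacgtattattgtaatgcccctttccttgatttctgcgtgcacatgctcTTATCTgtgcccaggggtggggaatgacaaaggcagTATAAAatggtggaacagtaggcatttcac
The GATA letters occurred in 3 of the 8 member promoters, 2 times in Lct (101 and 90 bases before the start, counted to the 5′ end of the match on the strand shown), 2 times in Mgam and 1 time in Slc2a2, and in 16.6% of all 32851 promoters of this length or 9.87% of the 13282 promoters of tested genes. TATAAA occurred in Sis, at 138 and 134 bases before the start on opposite strands, and in Mgam at 30 bases, and in 12.4% of all promoters or 6.84% of those of tested genes. TTTAT, letters of CDX factor sites, occurred in Lct, Sis and Mgam and in 37.3% of all promoters or 24.6% of those of tested genes. On the strand shown, 1 of the 2 matches in Lct overlaps its first GATA match. Every TATAAA match must overlap one of TTTAT, because TATAAA holds ATAAA, which is TTTAT read on the other strand. These are matches of letters in one window and were not tested for binding.

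The 12 libraries were not alike in markers of gut position, and every value below was measured in these same libraries. Fabp6, the ileal bile acid binding protein that defines the distal ileum, stood at 4.32 normalized counts in PBS replicate 6 and at 2.52 and 16.0 in P. gingivalis replicates 1 and 5, against 11246 to 69383 in the other 9 libraries, so these 3 went against the labelled tissue in this marker. Slc10a2, the ileal bile acid carrier, was also lowest there, at 90.7, 23.9 and 57.2 against 1236 to 4007, and the fatty acid carrier gene Fabp1, used mostly in the upper small intestine, was highest, at 16938, 26745 and 21996 against at most 1821. P. gingivalis replicate 6 lay at the other end in Fabp1, at 18.3. It did not stand out in the distal ileum genes, which summed to 50982 there. Their sums were 32950 to 123707 in PBS libraries and 23353 to 88336 in the P. gingivalis group. The position of this library along the gut was not tested. Car1, a carbonic anhydrase typical of the large intestine, stood there at 498 against at most 2.71 elsewhere. The colon genes Aqp8, Hoxb13, Hoxd13 and Hoxd10 were at or near 0 in all 12 libraries. Slc26a3 and Aqp4, also listed for colon, ranged over 0.71 and 0.73 log2 units across the 12 libraries. Summed, the listed colon genes held 9057 in P. gingivalis replicate 6. Their sums were 9284 to 16693 in PBS libraries and 6847 to 13343 in the P. gingivalis group. Epithelial markers were present throughout, with Epcam, an epithelial adhesion molecule, between 7365 and 17095. Recovered depth was 6553306 to 10378841 reads per library. Results are given with all libraries and without these 4. In bulk tissue, fewer cells of a type and less RNA per cell cannot be told apart.

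Lactase varied the most. In the PBS libraries 1 to 6, Lct stood at 748, 923, 4709, 8833, 4465 and 22535 normalized counts, and in the P. gingivalis libraries 1 to 6 at 18205, 9933, 4777, 5055, 27629 and 0.870. The last value is 1 read. The 3 libraries almost without Fabp6 were the highest, PBS replicates 1 and 2 were low among the controls, and the groups overlapped. Leaving aside P. gingivalis replicate 6, the highest library was 37.0-fold above the lowest.

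Sucrase-isomaltase was abundant in every library. Sis stood at 48894, 35984, 49630.4, 50100.5, 49979.8 and 51509 in PBS and at 67738, 55565, 47744, 41055, 84551 and 16079 after P. gingivalis. The PBS libraries other than replicate 2 lay close together, and the P. gingivalis libraries spread below and above all of them. The highest library was 5.26-fold above the lowest, and 2.35-fold when P. gingivalis replicate 6 is left aside.

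Maltase-glucoamylase followed a similar course. Mgam stood at 35392, 32908, 44901, 48150.3, 50079 and 46787 in PBS and at 54029, 56949.8, 43429.7, 48570.2, 77503 and 18093 after P. gingivalis. Again P. gingivalis replicates 5 and 6 were the highest and the lowest of the 12, and the groups overlapped. The ratio of Sis to Mgam counts, without correction for length, stayed between 0.845 and 1.38 over all 12 libraries.

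Trehalase was at a lower level. Treh stood at 665, 547, 578, 932, 729 and 2791 in PBS and at 3093, 1101, 710.1, 607, 3575 and 257 after P. gingivalis. The 3 libraries almost without Fabp6 stood well apart at the top, the next highest library being P. gingivalis replicate 2 at 1101. The lowest library, P. gingivalis replicate 6, was 2.12-fold below the next, and the groups overlapped.

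**Figure D1:**
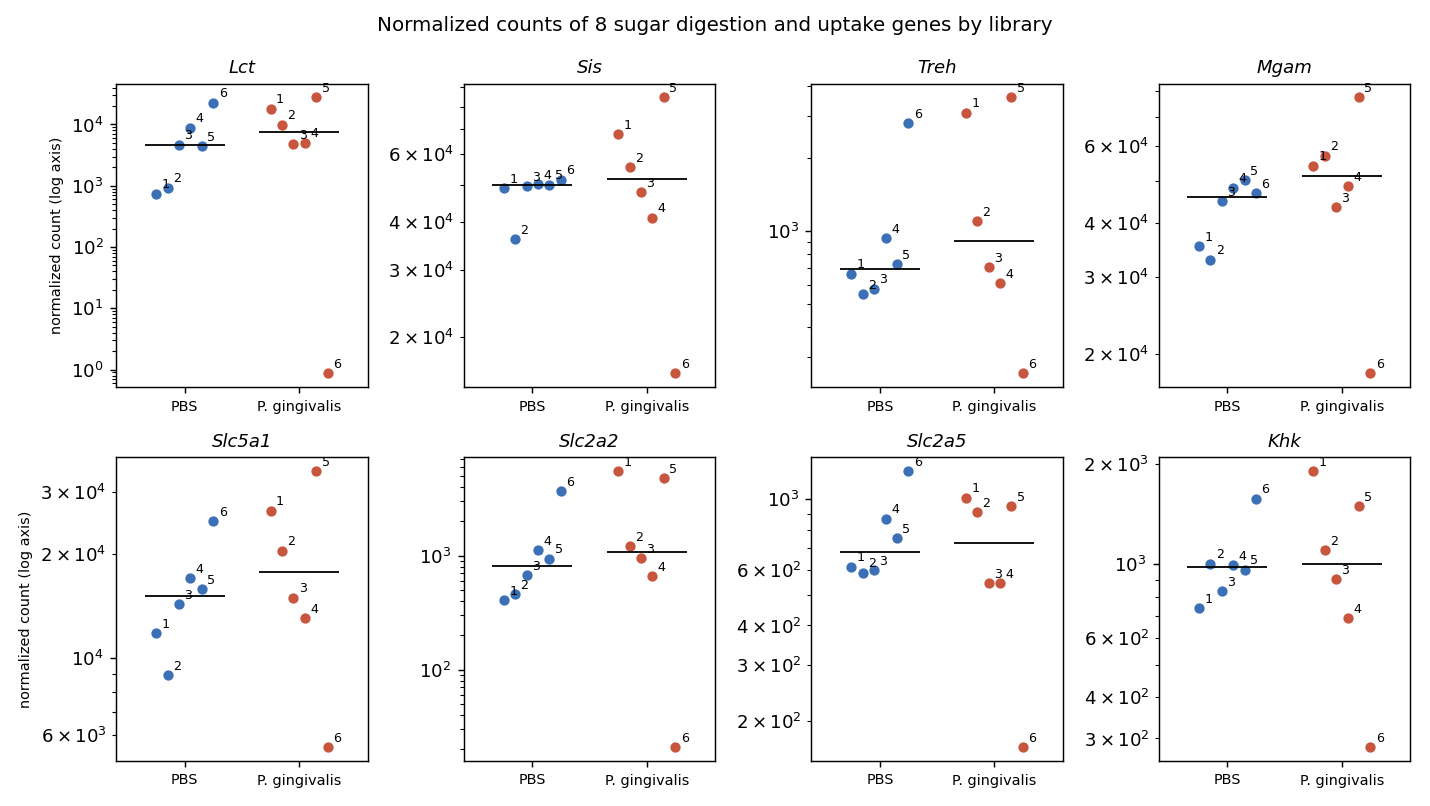
Normalized counts (log axis, own scale per panel) of the 8 genes in the PBS (blue) and P. gingivalis (red) libraries; digits are replicate numbers and lines are group medians. P. gingivalis replicate 6 is the lowest point in all 8 panels, at 0.870 for Lct and 16079 for Sis, and the groups overlap in each panel.

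The glucose and galactose carrier Slc5a1 stood at 11819, 8939, 14308, 16989, 15781 and 24728 in PBS and at 26533, 20363, 14943, 13017, 34498 and 5551 after P. gingivalis. PBS replicate 6 and P. gingivalis replicates 1 and 5 were the highest, and the range was 6.22-fold, or 3.86-fold with P. gingivalis replicate 6 left aside. The hexose carrier Slc2a2 varied far more, at 404, 458, 669, 1114, 942 and 3654 in PBS and at 5505, 1215, 945, 656, 4775 and 20.9 after P. gingivalis, a 264-fold range that was 13.6-fold without the last library. The value of 20.9 was 19.4-fold below the next lowest library, PBS replicate 1.

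The fructose carrier Slc2a5 stood at 613, 586, 597, 869, 756 and 1228 in PBS and at 1012, 913, 545, 543, 951 and 165 after P. gingivalis. The fructose kinase Khk stood at 738, 1004, 831, 995, 965 and 1574 in PBS and at 1903, 1100.1, 902, 689.9, 1493 and 283 after P. gingivalis. For both genes the same 3 libraries were the highest, by narrower margins, and P. gingivalis replicate 6 was the lowest. The ranges were 7.43-fold for Slc2a5 and 6.73-fold for Khk, and 2.26-fold and 2.76-fold with P. gingivalis replicate 6 left aside.

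Set beside one another, all 8 genes shared the lowest library and 6 of 8 the 3 highest, but they did not share the steepness. P. gingivalis replicate 6 was the lowest library for 8 of 8 members, and for 19.7% of all 15025 tested genes. PBS replicate 6 and P. gingivalis replicates 1 and 5 were the 3 highest for 6 of 8 members, all but Sis and Mgam, and for 6.46% of all tested genes. These counts describe the libraries and were looked for after the values had been seen. The SD of log2 values over the 12 libraries was 3.73 for Lct, its 1-read library included, and 2.10 for Slc2a2, at the 99.95th and 99.7th percentile of all tested genes, and 1.16 for Treh at the 98.4th. It was 0.51 for Mgam and 0.58 for Sis, at the 86.8th and 90.6th percentile. With P. gingivalis replicate 6 left aside, Slc2a5 had the narrowest range, 2.26-fold, beside 2.35-fold for Sis and 2.36-fold for Mgam.

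**Figure D2:**
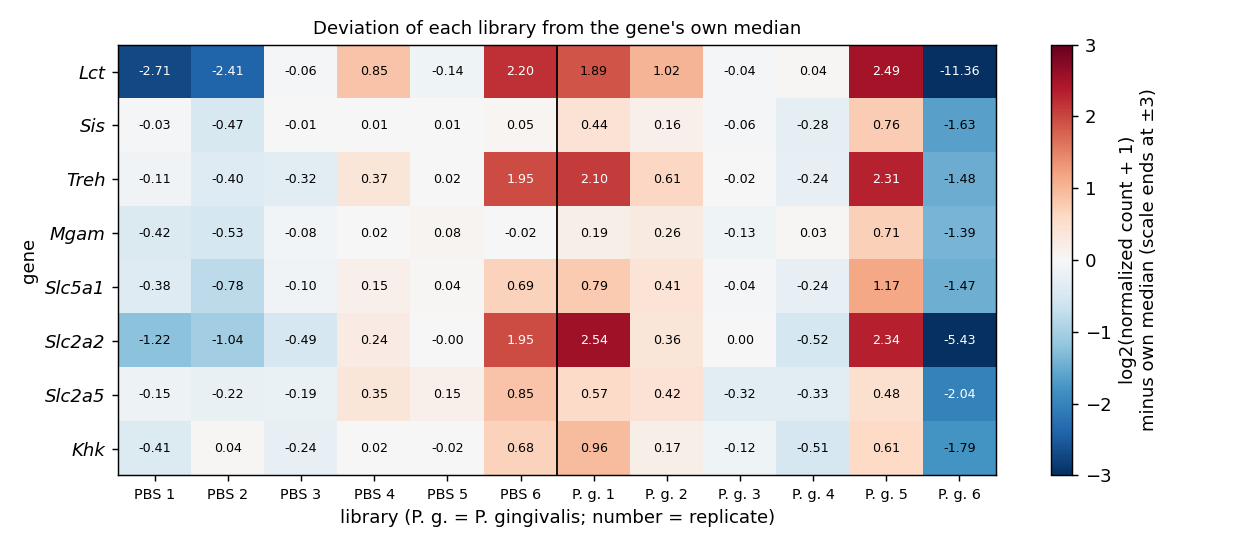
Deviation of each library (columns) from the gene's own median over the 12 libraries, in log2(normalized count + 1), for the 8 genes (rows); colours end at 3 log2 units while the printed values do not. In P. gingivalis replicate 6 Slc2a2 reaches -5.43 and Mgam -1.39, while the cell of Lct there rests on 1 read and is no measured distance.

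Markers of epithelium and muscle also differed between libraries. Summed over the 18 listed epithelial markers, PBS libraries held 93931 to 114021 normalized counts and P. gingivalis libraries 70838 to 134190.2, with 84146 in replicate 6. Vil1, the brush border protein villin, was lowest in P. gingivalis replicate 6, at 8625 against 15587 to 27425. The summed level of the 11 smooth muscle genes was highest in that library, at 37029.5, against 11609 to 28609 elsewhere. The 18 listed brush border and enterocyte genes summed to 96298 in P. gingivalis replicate 6, against 182952 to 236403 in PBS libraries. Every library was also rescaled to an equal mean of the 17 tested epithelial markers. Their mean log2 level was 11.36 in P. gingivalis replicate 6 and 11.17 in replicate 1 of that group. This rescaling did not set brush border levels equal. P. gingivalis replicate 6 then lay below the median by 5.02 log2 units for Slc2a2, 1.72 for Slc2a5, 1.38 for Khk and 1.26 for Sis. The corresponding values for Slc5a1, Mgam and Treh were 1.14, 1.09 and 1.08. For Lct no distance is given, because its 1 read in that library is under the floor of 3 reads, or 2.61 normalized counts.

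Within a library, the balance between members changed with the same libraries. The ratio of Slc2a2 to Slc5a1 counts was 0.0342 to 0.148 in PBS and 0.00376 to 0.207 after P. gingivalis, lowest in replicate 6 and highest in replicate 1 of that group. Slc2a5 exceeded Slc2a2 by 7.92-fold in P. gingivalis replicate 6 and stood at 0.184 times its count in replicate 1. Lct reached 0.437 times the count of Sis in PBS replicate 6 and 0.0153 times in PBS replicate 1. In contrast Khk stayed between 1.14 and 1.88 times Slc2a5 in all 12 libraries, and Slc5a1 between 0.242 and 0.480 times Sis. In every one of these ratios the groups overlapped.

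**Figure D3:**
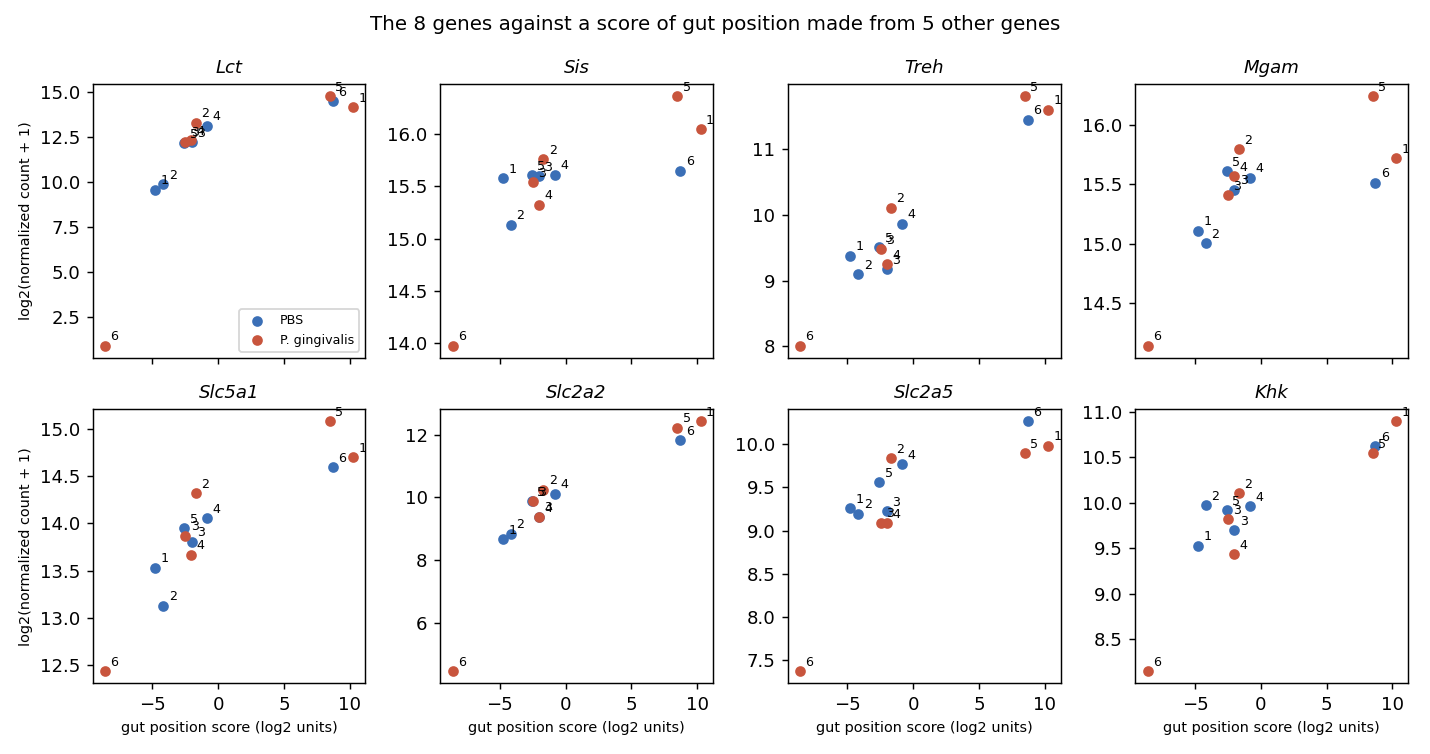
Level of each gene in log2(normalized count + 1) against a gut position score, the mean log2 level of Fabp1, Apoa4 and Gata4 minus that of Fabp6 and Slc10a2, in PBS (blue) and P. gingivalis (red) libraries, with replicate numbers. The score is -8.58 in P. gingivalis replicate 6, -4.78 to -0.83 in 8 libraries and 8.49 to 10.25 in the other 3, and Lct, Slc2a2 and Slc5a1 are lowest at the left and highest at the right.

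The score in that plot holds none of the 8 genes, but it holds Gata4 and Apoa4, the genes nearest to Lct and Slc2a2 below. Because the libraries fall into separate clusters on it, no correlation is given. Among the 8 libraries in the middle cluster, PBS replicates 1 and 2 had the lowest scores, -4.78 and -4.16, and also the lowest Lct, Slc2a2, Slc5a1 and Mgam of those 8. Sis, Treh, Slc2a5 and Khk did not keep this order. Sis stood at 48894 in PBS replicate 1, above P. gingivalis replicates 3 and 4. Treh was lower in PBS replicate 3 (578) than in PBS replicate 1 (665). Slc2a5 was lowest in P. gingivalis replicate 4 (543), and Khk was higher in PBS replicate 2 (1004) than in P. gingivalis replicate 4 (690).

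Levels of different genes were compared per kilobase of exon. In the 6 PBS libraries Sis led with 6388 ± 776 normalized counts per kilobase (mean ± SD), followed by Mgam with 4944 ± 819, Slc5a1 with 3759 ± 1314 and Lct with 1098 ± 1273. Khk with 566 ± 163, Treh with 508 ± 424, Slc2a5 with 228 ± 72.9 and Slc2a2 with 209.7 ± 214 were the lowest. Of these neighbours, only Slc5a1 and Lct differed by more than the sum of their SDs. In the 6 P. gingivalis libraries the first 4 kept their order, with Sis at 6983 ± 3141, Mgam at 5717 ± 2230.1, Slc5a1 at 4666 ± 2513 and Lct at 1707 ± 1599, and no neighbours differed by more than that sum.

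The comparison of the groups asked whether sugar digestion and uptake genes changed with P. gingivalis, and none of the 8 passed. Each difference is the P. gingivalis mean less the PBS mean of log2(normalized count + 1), a scale that understates changes of weakly expressed genes. Treh differed by 0.29 (SE 0.59), Slc5a1 by 0.17 (SE 0.39) and Mgam by 0.10 (SE 0.33). Lct differed by -0.61 (SE 1.92), Slc2a5 by -0.33 (SE 0.38), Khk by -0.13 (SE 0.37), Sis by -0.03 (SE 0.37) and Slc2a2 by -0.02 (SE 1.09). Their limma adjusted p-values, taken over all 15025 genes, were all at least 0.992. Mean log2 levels were thus higher for 3 of 8 members, against 48.9% of all tested genes, and the median difference was -0.03, against -0.00 over all tested genes. The Lct difference, here and in every fit that keeps P. gingivalis replicate 6, includes its 1 read there, under the floor of 3 reads. It moved with the pseudocount, to -0.69 at 0.5 and -0.34 at 5. Mean normalized counts of Lct were 7035 in PBS and 10933 in P. gingivalis libraries.

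By limma 0 of 8 members passed at an adjusted p of 0.05, as did 0% of all genes tested. At an unadjusted p under 0.05 there were 0 of 8 members and 3.73% of all genes, or 560 genes (1.57% higher and 2.16% lower). The groups failed to overlap for 0 of 8 members and for 0.166% of all genes. On recovered reads edgeR called 0% of 14907 genes and DESeq2 0.181% of 18239, with no member among the latter. Exact permutation of the 924 labelings, two-sided and unadjusted, gave p-values from 0.550 for Slc2a5 to 0.991 for Slc2a2, where the smallest possible is 0.00216.

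The spread between libraries set wide limits on what could be seen. The 95% interval of the difference ran from -0.61 to 0.82 log2 units for Mgam, from -0.82 to 0.76 for Sis, from -0.67 to 1.0 for Slc5a1, from -1.14 to 0.47 for Slc2a5 and from -0.91 to 0.66 for Khk. It ran from -0.98 to 1.57 for Treh, from -2.35 to 2.31 for Slc2a2 and, with the 1-read library included, from -4.74 to 3.51 for Lct. These results therefore do not show that the groups were alike.

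P. gingivalis replicate 6 set the sign of several of these values. Without it all 8 differences were positive, with Lct at 1.46 (SE 0.80), Slc2a2 at 1.04 (SE 0.63), Treh at 0.70 (SE 0.51), Slc5a1 at 0.48 (SE 0.29), Mgam at 0.37 (SE 0.24), Sis at 0.28 (SE 0.26), Khk at 0.21 (SE 0.24) and Slc2a5 at 0.03 (SE 0.22), and none passed (smallest limma adjusted p = 0.654, for Lct), while 53 other genes did, 1 higher and 52 lower. Without PBS replicate 6 and P. gingivalis replicates 1 and 5, all 8 were negative, from -1.69 (SE 2.12) for Lct to -0.12 (SE 0.37) for Mgam. Without all 4 of these libraries, Lct differed by 1.23 (SE 0.69), Slc2a2 by 0.45 (SE 0.31) and Slc2a5 by -0.06 (SE 0.19), with limma adjusted p-values of at least 0.750 for all 8.

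**Figure D4:**
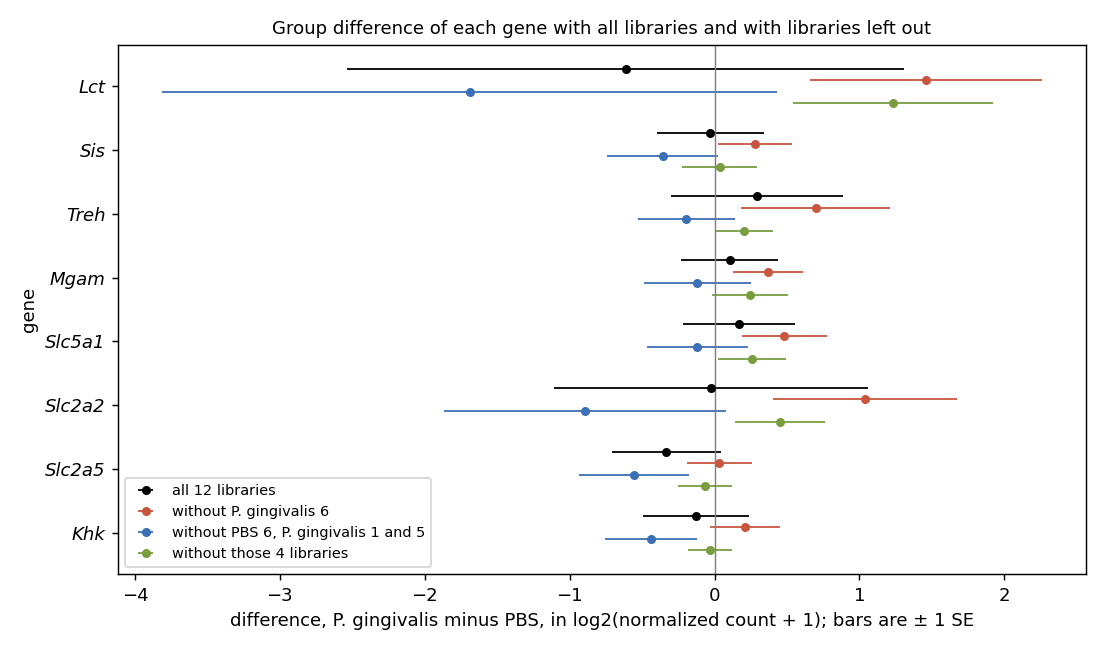
Group difference of the 8 genes, P. gingivalis minus PBS in log2(normalized count + 1), with all 12 libraries and with 1, 3 or 4 libraries left out; bars are ± 1 SE. All points lie to the right of 0 without P. gingivalis replicate 6 and to the left without PBS replicate 6 and P. gingivalis replicates 1 and 5.

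With the gut position score as a covariate, SEs shrank while the differences stayed short of the threshold. The score contains Gata4 and Apoa4, the genes nearest to Lct and Slc2a2 in the comparison below, so smaller SEs there are partly built in. The smallest unadjusted limma p of a member in this fit was 0.040, for Slc2a5. Of all 15025 tested genes, 700 were under 0.05 in it. The SE of Treh went from 0.59 to 0.16, that of Slc2a2 from 1.09 to 0.50, that of Khk from 0.37 to 0.18 and that of Slc5a1 from 0.39 to 0.21. In this fit Slc2a5 differed by -0.50 (SE 0.22), Khk by -0.29 (SE 0.18), Slc2a2 by -0.53 (SE 0.50), Lct by -1.37 (SE 1.28), Sis by -0.14 (SE 0.29), Mgam by 0.01 (SE 0.28), Treh by -0.01 (SE 0.16) and Slc5a1 by -0.00 (SE 0.21), with limma adjusted p-values of at least 0.955.

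Genes whose course over the 12 libraries was nearest to each member were found by the mean absolute difference of median-centred log2 values. The nearest to Lct was Gata4, the GATA factor of the upper small intestine, at 0.89 log2 units, followed by Slc23a1, an ascorbate carrier, at 0.91 and Dnase1 at 0.99; the median over all tested genes was 2.14. Gata4 stood at 67.1, 94.4, 187, 276, 288 and 638 in PBS and at 655, 303, 173, 225, 585 and 0 after P. gingivalis, the 0 being no read where 3 reads would be 2.61 normalized counts. Gata4 was picked for following Lct, so their shared order over the libraries restates that choice, and Gata4 and Apoa4 are also part of the gut position score.

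The nearest to Slc2a2 were Apoa4, an apolipoprotein of fat absorption, at 0.21, the gut peptide gene Leap2 at 0.23 and Trim38 at 0.31. Slc5a1 was nearest to Mttp, which loads lipid onto chylomicrons, at 0.11, Cyb5r3 at 0.11 and Sgpl1 at 0.12. Near Treh lay Tymp, a thymidine phosphorylase, at 0.17, Sec14l2 at 0.21 and Gdpd2 at 0.27. Sis was nearest to Bche, butyrylcholinesterase, at 0.07, then the sterol exporter gene Abcg8 at 0.14 and Gm10499 at 0.15. Mgam was nearest to Zswim5, Vipr1 and the choline kinase gene Chka, each at 0.12.

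Slc2a5 and Khk had the same nearest gene, Exoc3l4, at 0.14 and 0.13. Slc2a5 was next nearest to Gpd1, a glycerol phosphate dehydrogenase, and Soat2, a cholesterol esterifying enzyme, both at 0.16, and Khk to Cbr1 and Mogat2, both at 0.15. Among the members themselves the closest pair was Sis and Mgam, at 0.14, where 2 other genes were closer to Sis and 7 to Mgam. Slc2a5 and Khk were 0.22 apart, and Lct was 1.02 from its nearest member, Slc2a2. These distances describe 12 libraries that share tissue and strain.

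Other sugar carriers did not share one order of the libraries. Of 18 listed, 16 were tested, of which 5 had positive and 11 negative group differences (median -0.04), 0 passed and 0 reached an unadjusted p under 0.05 in limma. Those with the smallest p were Slc2a4, the insulin-responsive carrier GLUT4, at -0.42 (SE 0.32), Slc2a8 at -0.14 (SE 0.13) and Slc2a12 at -0.58 (SE 0.61). P. gingivalis replicate 6 was the lowest library for 7 of the 16 (19.7% of all tested genes) and the highest for 6 (18.3% of all tested genes). PBS replicate 6 and P. gingivalis replicates 1 and 5 were the 3 highest for 5 of the 16 (6.46% of all tested genes).

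The first 7 were Slc2a7, Slc2a9, Slc5a4a, Slc5a4b, Slc5a9, Slc5a11 and the glucose-6-phosphate carrier gene Slc37a4. Slc5a4b, a relative of Slc5a1, stood at 45.2 in that library against 560.3 to 2884 elsewhere, and Slc2a7 at 11.3 against 60.0 to 444. The other 6 were Slc2a1, Slc2a3, Slc2a4, Slc2a12, Slc2a13 and Slc50a1. Slc2a4 stood at 263 there against 58.8 to 197, in the library with the highest smooth muscle level; its part in the result was not tested.

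**Figure D5:**
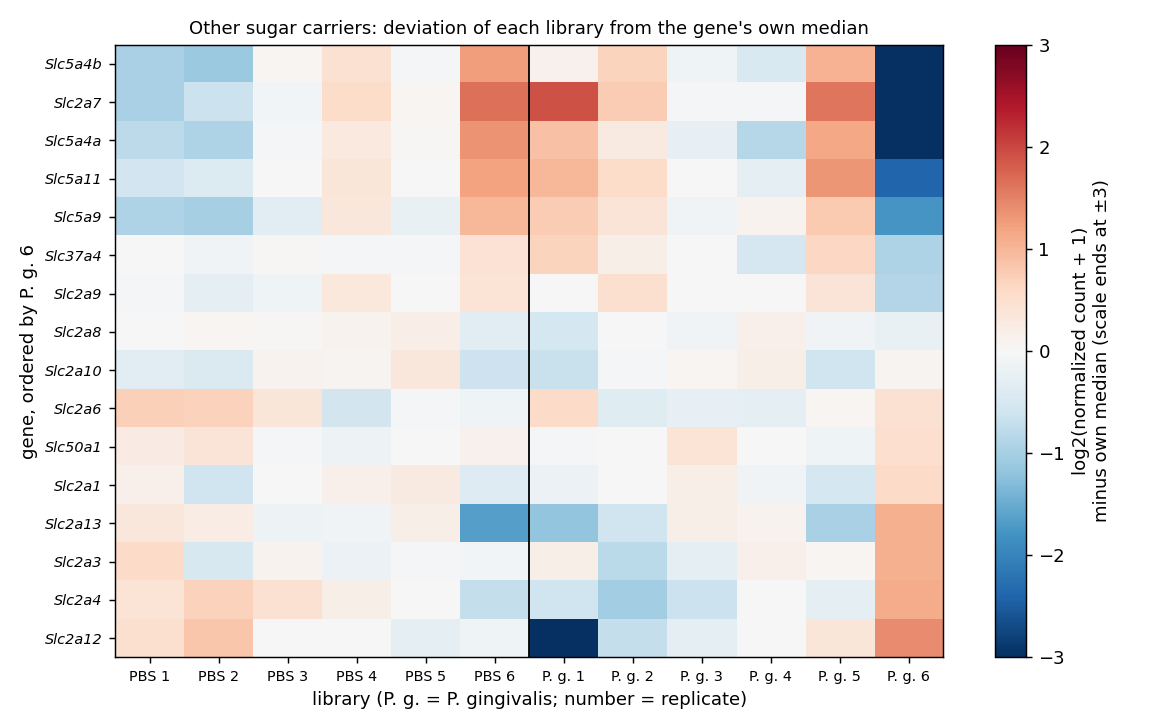
Deviation of each library (columns) from the gene's own median, in log2(normalized count + 1), for 16 other sugar carriers (rows), ordered by P. gingivalis replicate 6; colours end at 3 log2 units. In that library 7 genes are at their lowest, such as Slc5a4b at 45.2 normalized counts, and 6 at their highest, such as Slc2a4 at 263.

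Of 22 symbols listed for enzymes of fructose and galactose use and gluconeogenesis, 21 were among the deposited genes and 20 were tested. Group differences were positive for 8 and negative for 12 (median -0.08), and 0 passed. Pcx, pyruvate carboxylase, was the 1 of 20 with an unadjusted limma p under 0.05, against 3.73% of all tested genes. Its mean was 653 ± 149 in PBS against 429.9 ± 106 in P. gingivalis libraries (SD, n = 6 each), giving -0.61 (SE 0.17, limma adjusted p = 0.675). Aldoc and Aldoa, aldolases, followed at 0.26 (SE 0.16) and -0.13 (SE 0.09). Fat cells also express Pcx, and their markers had lower levels too. The 10 adipocyte markers summed to 3067 to 13825 in PBS libraries against 578 to 5190.4 in P. gingivalis libraries. All 10 were lower at an unadjusted limma p under 0.05, against 2.16% of all tested genes, though 0 passed. The defining markers Adipoq, Plin1, Cfd, Retn and Lep were at 0 in P. gingivalis replicates 1, 2 and 3. Their part in the result was not tested.

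In the libraries almost without Fabp6, 7 of the 20 enzymes had their 3 highest values, among them Tkfc, Galm, Galk1, G6pc, Fbp1 and Pck1, against 6.46% of all tested genes. P. gingivalis replicate 6 was the lowest library for 12 of the 20, against 19.7%. Tkfc, which phosphorylates glyceraldehyde in fructose use, stood at 1771, 2183 and 1490.5 in these libraries, at 734 to 1249 in the 8 others besides P. gingivalis replicate 6, and at 423 in that one. G6pc, the last enzyme of glucose release, stood at 231, 277 and 362 against 9.47 to 40.4, and at 4.35.

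All 17 glycolysis enzymes listed were tested, with 10 positive and 7 negative differences (median 0.05) and 0 past the threshold. Ldhb, a lactate dehydrogenase subunit, differed by -0.54 (SE 0.23). It was the 1 of 17 with an unadjusted limma p under 0.05, against 3.73% of all tested genes. Hk3 at 0.62 (SE 0.32) and Eno3 at -0.40 (SE 0.21) followed. Of 17 other glycosidases listed, 13 were tested, 7 positive and 6 negative (median 0.01), with 0 past the threshold. Amy1, an amylase gene, had a mean of 36.4 ± 21.0 in PBS against 8.03 ± 8.68 in P. gingivalis libraries (SD, n = 6 each), giving -2.28 (SE 0.62, limma adjusted p = 0.554). It stood at 7.52 to 61.5 in PBS and 1.26 to 23.5 after P. gingivalis, so the groups overlapped. Whether the adipocyte values given above bear on Amy1 was not tested. Mgam2-ps differed by 0.27 (SE 0.19) and Gba2 by -0.17 (SE 0.13). The pancreatic amylase genes Amy2a1, Amy2a5 and Amy2b were at 0 in all 12 libraries, as were Cela3b, Prss1, Try4 and Ctrc of the 14 acinar cell markers.

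Of 15 symbols listed for sugar sensing and gut hormone genes, 14 were among the deposited genes. Of these 9 were tested, 3 positive and 6 negative (median -0.12), and 0 passed. Txnip, a glucose-responsive arrestin-like gene, had a mean of 4718 ± 1238 in PBS against 3256 ± 553 in P. gingivalis libraries (SD, n = 6 each), giving -0.52 (SE 0.16, limma adjusted p = 0.870). Its P. gingivalis libraries lay between 2608 and 3861 and its PBS libraries between 3804 and 7145. Mlxip and Mlx, partners in glucose-responsive transcription, differed by 0.31 (SE 0.18) and -0.15 (SE 0.12). Tas1r2, a sweet taste receptor subunit, had no read in any library, where 3 reads per library would be 2.14 to 3.78 normalized counts.

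Regulators of disaccharidase genes were tested for 17 of 18 listed, 9 positive and 8 negative (median 0.04), with 0 past the threshold. Foxa3 differed by -0.29 (SE 0.13) and was the 1 of 17 with an unadjusted limma p under 0.05, against 3.73% of all tested genes. Next were Cdx2 at -0.25 (SE 0.13) and Prdm1, a repressor in the maturation of the gut after birth, at 0.28 (SE 0.18). Gata4, Gata6 and Hnf4g had their 3 highest values in PBS replicate 6 and P. gingivalis replicates 1 and 5, or 3 of 17 against 6.46% of all tested genes, and P. gingivalis replicate 6 was the lowest library for 9 of the 17, against 19.7%. Gata6 ranged from 252 to 732, far less than Gata4, and Hnf4g from 1491 to 4700.1. Cdx2, the intestinal identity factor, ranged from 760.2 to 1481.

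Markers of other cells and of enterocytes are given by counts of positive and negative group differences in limma, where 0 members of any list passed. For the brush border and enterocyte list there were 5 and 13 of 18 tested, with Alpi, the intestinal alkaline phosphatase, between 1507 and 6833, and for the epithelial list 4 and 13 of 17. The distal ileum list had 0 and 9 of 9 and the list of the upper small intestine 7 and 3 of 10. There were 0 and 11 of 11 for smooth muscle, 0 and 10 of 10 for adipocytes, 10 and 0 of 10 for B cells, 7 and 0 of 7 for T cells, 4 and 4 of 8 for plasma cells, 5 and 7 of 12 for goblet and Paneth cells, 7 and 4 of 11 for crypt and dividing cells, 4 and 3 of 7 for colon and 1 and 2 of 3 for acinar cells. Unadjusted limma p-values under 0.05, which 3.73% of all tested genes reached, were reached by all 10 adipocyte genes and 4 smooth muscle genes, all lower, by 2 T cell genes and 1 crypt gene, all higher, and by no gene of the other lists in this paragraph. B cell markers summed to 98.1 to 866 in PBS libraries against 108 to 1010.4 in P. gingivalis libraries, and T cell markers to 153 to 394 against 174 to 397. Genes of a list were measured in the same 12 libraries, so their signs are not independent observations. How these lists bear on the 8 genes was not tested.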

How the data were processed

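Tissue pieces were placed in RNAlater, RNA was purified on columns, and it was made into polyadenylated RNA libraries with an Illumina TruSeq kit, per the labels' protocols. Listed in the submitters' processing notes are DESeq2, Cufflinks, HISAT2 and FastQC, with no version or role, and the mouse build GRCm38 (mm10). How reads were counted, with which strand setting and annotation, is not given in the sources used here. The deposited table, named as DESeq2 normalized counts, holds a signal per gene and library: from the values, read counts that the authors had scaled by a single factor in each library. In each sample 100% of values were whole multiples of 1 step within 0.001 reads, which gave back whole reads; 18583 genes had none, and 27 names had been turned into dates. No libraries were copies of each other (smallest chi-square per degree of freedom 6.53).

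The test was limma 3.58.1 (R 4.3.3), trended and two-sided, on log2(value + 1) of genes whose normalized counts averaged 10 or more across all 12 libraries, with Benjamini-Hochberg adjustment over all 15025 genes at 0.05 and no covariate. edgeR 4.0.16 and DESeq2 1.42.0 were run on the recovered reads. The limma steps were run on simulated reads with the same dispersion for every gene and no differences of gut position between libraries. They recovered 84% of 2-fold and 100% of 4-fold changes in genes with a mean of at least 50, with 3 false calls. This does not tell how well changes would be found in the 8 genes, which varied widely between libraries. Depth counts and floors of 3 reads cover counting error only. Exon lengths and gene positions came from GENCODE M21 and promoters from RefSeq (GRCm38.p6), both on the authors' build; all 8 members matched.

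Members and lists were chosen with earlier results of these data known. Named genes were the 8 members, the 3 nearest genes to each, the 3 genes of each list of sugar genes with the smallest p, and the markers Fabp6, Slc10a2, Fabp1, Car1, Epcam, Vil1 and Alpi. Other genes named in the text were chosen after their values were seen, and some genes of the lists are not reported here. Alternatives were other pseudocounts, filters, scalings and tests, sample weights, a replicate block, a position score, and libraries left out.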

Additional observations from a re-analysis of the deposited data

Results flagged for a closer look

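Among 112 groups of values (56 genes in each group of 6 libraries), 25 held a library at a distance from its other 5, against about 1 in 20 by chance. Of the 25, PBS replicate 6 accounted for 20. Many of these genes were picked because they follow a member, so the flags are not independent.

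Among the 8 genes, PBS replicate 6 stood above the other PBS libraries in Lct (22535 against 748 to 8833), Treh (2791 against 547 to 932), Slc2a2 (3654 against 404 to 1114) and Khk (1574 against 738 to 1004). Sis was low in PBS replicate 2, at 35984 against 48894 to 51509. PBS replicate 6 also stood above the others in the markers Fabp1 (16938 against 252 to 1814) and Alpi (6833 against 3554 to 4692).

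In genes near Lct or Slc2a2, PBS replicate 6 held Dnase1 at 1672, Apoa4 at 72646, Leap2 at 626 and Trim38 at 137. In genes near Sis or Treh it held Gm10499 at 703, Tymp at 441, Sec14l2 at 1076 and Gdpd2 at 658. In genes near Slc5a1, Slc2a5 or Khk it held Mttp at 17823, Sgpl1 at 6809.6, Exoc3l4 at 1459, Gpd1 at 4208, Cbr1 at 1297 and Mogat2 at 2299.7. All were the highest of the 6 PBS libraries.

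In the P. gingivalis group, replicate 6 stood apart in Car1, at 498 against 0 to 2.71, and in Slc2a4, at 263 against 58.8 to 122. Txnip was 7145 in PBS replicate 4 against 3804 to 4739, and Foxa3 was 221 in PBS replicate 5 against 178 to 189.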

How the results depend on the processing

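No member passed in any of 216 combinations of member and alternative (smallest limma adjusted p = 0.654), but 37 of these had the other sign, and each of the 8 members changed sign at least once. Exact permutation, included in the 216, gave no adjusted p. It, the other filters and the replicate block keep the difference of the main fit by design, so no sign could turn in them. Leaving out each library in turn gave differences from -1.31 to 1.46 for Lct, -0.20 to 0.28 for Sis, -0.059 to 0.70 for Treh, -0.048 to 0.37 for Mgam, -0.045 to 0.48 for Slc5a1, -0.56 to 1.04 for Slc2a2, -0.49 to 0.033 for Slc2a5 and -0.34 to 0.21 for Khk, the highest in each case without P. gingivalis replicate 6. The signs of Lct, Sis, Slc2a2 and Khk turned with edgeR (0.63, 0.12, 0.85 and 0.057), DESeq2 (0.64, 0.13, 0.86 and 0.061) and sample weights (0.32, 0.060, 0.48 and 0.045). Slc2a2 turned with a pseudocount of 5 (0.013), and Sis and Slc2a2 with equal epithelial markers (0.051 and 0.054). With the position score Treh and Slc5a1 turned (-0.0079 and -0.0029). Without PBS replicate 6 and P. gingivalis replicates 1 and 5, Treh, Mgam and Slc5a1 turned (-0.20, -0.12 and -0.12), and without P. gingivalis replicate 6 as well, Lct, Sis and Slc2a2 did (1.23, 0.037 and 0.45). The cause was not tested.

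Over all genes, limma called 0, and 33 were called by DESeq2, 20 with sample weights, 1 with a pseudocount of 5, 1 without the 3 libraries and 9 without the 4; leaving out each library in turn gave 0 to 53 calls. Of the 53, called without P. gingivalis replicate 6, 1 was higher and 52 lower; there were 7 calls without PBS replicate 5 and 1 each without PBS replicate 6 and P. gingivalis replicate 2. With the replicate block limma called 0 genes (462 at an unadjusted p under 0.05). Samples with the same number did not deviate together (correlations from -0.54 to 0.08), and none of the 6 PBS libraries correlated best with its own number. The epithelial rescaling moved the median of all genes to 0.07 log2 units. Lct in P. gingivalis replicate 6 was at 1 read, under the floor of 3 reads, in a library of 7432569 reads with 18485 for Sis.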

Other observations

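Gut hormone genes that respond to sugar, chosen after their values were seen, ran in opposite order over the libraries. Gip, the incretin of the upper small intestine, stood at 937 in PBS replicate 6 and at 751 and 863 in P. gingivalis replicates 1 and 5, between 266 and 520.2 in 8 other libraries and at 19.1 in P. gingivalis replicate 6. Gcg, which encodes the incretin GLP-1, stood at 221, 180.3 and 197 in the same 3 libraries, between 305 and 476 in the 8 others and at 509 in P. gingivalis replicate 6. Their group differences did not pass, at -0.46 for Gip and -0.14 for Gcg (limma adjusted p = 0.992 for each).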
